A study of Homo sapiens with 7 samples.

Results

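The alcohol and aldehyde dehydrogenase genes of HepG2 were described in 10 members: ADH1A, ADH1B, ADH1C, ADH4, ADH5, ADH6, ADH7, ALDH1A1, ALDH1B1 and ALDH2. They were found by symbol in 11 of the 30032 rows of the expression table, because ADH4 has 2 rows. HepG2 is an established human liver cancer cell line, grown here without any treatment named in the labels. The 7 samples are 1 native MNase-Seq map of nucleosome positions, 1 RNA-Seq sample and 5 ChIP-Seq libraries, for the marks H3K4me3, H3K9ac and H3K27ac and the marks H3K27me3 and H3K9me3. Each assay has a single sample, so there are no groups to compare and no P values are given. Being 1 cell line, HepG2 gives no measure of normal hepatocytes, and no other cell type was analysed here.

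Alcohol dehydrogenases (ADH) are zinc enzymes that oxidise alcohols to aldehydes with NAD, and aldehyde dehydrogenases (ALDH) oxidise the aldehydes further to acids. In the liver the pair of reactions turns ethanol into acetaldehyde and then acetate, and the same families act on retinol and retinaldehyde. ADH1A, ADH1B and ADH1C encode the alpha, beta and gamma chains of class I ADH, the main ethanol-oxidising enzymes of the adult liver. ADH4 encodes the class II enzyme, which is also a liver enzyme. ADH5 encodes the class III enzyme, present in most tissues, which clears formaldehyde bound to glutathione. ADH6 encodes the class V enzyme, and ADH7 the class IV enzyme, best known from the stomach and the upper digestive tract. ALDH2 is the mitochondrial enzyme that clears most acetaldehyde, ALDH1B1 is a related mitochondrial enzyme, and ALDH1A1 is a cytosolic enzyme that makes retinoic acid from retinaldehyde. H3K4me3, H3K9ac and H3K27ac are marks of active chromatin, and H3K27me3 and H3K9me3 are marks of repressed chromatin.

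The promoters fell into sequence types that the choice of genes did not use. RefSeq (GRCh38.p14) holds a promoter window for 9 of the 10 genes, all but ALDH2, and the 250 bases before each start are used here. These windows are in another genome build than the deposited files, so no position of a nucleosome is read from them. Each is printed 5' to 3' along its gene, which RefSeq places on the plus strand for ALDH1B1 and on the minus strand for the others shown. The class I genes are shown first, because they have near copies of 1 promoter and because none of them carried an activation mark. Capitals mark the letters CACGTG, a palindrome, searched on both strands.
ADH1A: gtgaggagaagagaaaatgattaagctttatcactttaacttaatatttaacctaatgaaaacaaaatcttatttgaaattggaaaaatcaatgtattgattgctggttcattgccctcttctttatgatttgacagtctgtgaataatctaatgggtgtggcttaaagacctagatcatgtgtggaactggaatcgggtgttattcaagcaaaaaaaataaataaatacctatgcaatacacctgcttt
ADH1B: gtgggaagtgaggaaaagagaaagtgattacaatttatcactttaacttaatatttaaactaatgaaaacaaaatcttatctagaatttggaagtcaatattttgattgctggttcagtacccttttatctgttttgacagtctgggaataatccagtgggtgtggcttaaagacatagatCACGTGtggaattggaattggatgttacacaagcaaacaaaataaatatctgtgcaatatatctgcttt
ADH1C: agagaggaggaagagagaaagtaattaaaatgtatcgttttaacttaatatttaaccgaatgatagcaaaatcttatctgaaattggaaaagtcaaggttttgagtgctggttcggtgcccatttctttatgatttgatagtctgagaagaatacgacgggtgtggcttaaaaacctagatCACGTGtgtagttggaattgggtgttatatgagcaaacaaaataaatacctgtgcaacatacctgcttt

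In a global alignment the windows of ADH1A and ADH1B had 212 identical bases (84.8%), those of ADH1A and ADH1C 207 (82.8%) and those of ADH1B and ADH1C 207 (82.8%). The other 33 pairs among the 9 genes had 47.2% to 61.6%. CACGTG was present from base 69 to base 64 before the start in ADH1B and ADH1C and had no match in ADH1A, and 6.34% of all 35116 promoter windows hold it. Of the other letters searched, CCAAT was found in ADH1A, ADH1B, ADH1C, ADH4, ALDH1A1 and ALDH1B1 (32.0% of all windows). TATAAA was found in ADH4 and ADH7 (10.7%). Its matches began 238 and 207 bases before the start in ADH4, and 212 and 93 bases before it in ADH7. ADH7 has 2 promoter windows in RefSeq, of which only the first was used. GTTAAT was found in ADH4 (6.23%), and TTNNGNAA in ADH1B, ADH4, ADH5, ADH7 and ALDH1A1 (33.2%). All letters were searched on both strands, with N for any base. These matches describe letters in a window and name no bound factor.

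The promoters below belong to genes with H3K4me3 near the start or, for ADH5, inside a shared locus. They are shown because they run from nearly no CG to many CG, and capitals mark each CG dinucleotide.
ADH6: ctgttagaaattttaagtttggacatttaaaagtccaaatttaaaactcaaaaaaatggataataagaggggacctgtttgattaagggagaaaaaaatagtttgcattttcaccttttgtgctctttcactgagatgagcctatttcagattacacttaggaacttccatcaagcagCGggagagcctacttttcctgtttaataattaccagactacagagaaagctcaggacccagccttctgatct
ALDH1A1: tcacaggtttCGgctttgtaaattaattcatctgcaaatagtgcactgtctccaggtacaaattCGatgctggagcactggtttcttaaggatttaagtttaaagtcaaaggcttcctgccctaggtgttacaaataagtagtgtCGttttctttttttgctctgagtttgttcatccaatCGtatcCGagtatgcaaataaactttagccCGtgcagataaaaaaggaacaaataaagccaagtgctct
ADH5: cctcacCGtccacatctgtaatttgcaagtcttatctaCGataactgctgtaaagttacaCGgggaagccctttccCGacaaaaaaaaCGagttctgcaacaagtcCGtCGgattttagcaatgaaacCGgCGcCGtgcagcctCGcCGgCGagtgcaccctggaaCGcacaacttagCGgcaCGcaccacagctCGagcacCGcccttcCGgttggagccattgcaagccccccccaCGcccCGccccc
ALDH1B1: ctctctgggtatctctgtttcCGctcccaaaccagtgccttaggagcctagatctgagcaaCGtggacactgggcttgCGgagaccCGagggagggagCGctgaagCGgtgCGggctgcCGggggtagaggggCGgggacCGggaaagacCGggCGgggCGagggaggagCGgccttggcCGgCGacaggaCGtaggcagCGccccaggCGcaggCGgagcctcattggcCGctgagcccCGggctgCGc

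ADH5 had 21 CG dinucleotides and ALDH1B1 had 23, against a median of 11 over all windows. ADH6 had 1, as did ADH1A, ADH1B and ADH4. ADH7 had 2, and ALDH1A1 and ADH1C had 6 each. GGGCGG, the GC box, was found in ADH5 and ALDH1B1, with 2 matches each, and is in 42.6% of all windows. Each match holds a CG that is also in the count of CG. The number of CG therefore did not separate the marked from the unmarked genes, since ADH6 with 1 CG was marked at its start and ADH1C with 6 was not.

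Expression was deposited as FPKM, a level scaled by transcript length and by the size of the library, in 2 columns of the RNA-Seq sample, here called run 1 and run 2. The sources used here do not say if the runs come from different cultures or are the same RNA sequenced again. Of the 10 genes, 9 had a mean FPKM of at least 1, and so did 51.4% of the 22118 named loci on chromosomes 1 to 22, X and Y. Their levels spanned more than the spread of the runs, from 0 for ADH7 to 326 for ALDH1A1. The retinaldehyde-oxidising and formaldehyde-clearing enzymes were at the top, and class I ADH was near the bottom. In a bulk sample, fewer cells with a transcript and less of it per cell cannot be told apart.

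**Figure D1:**
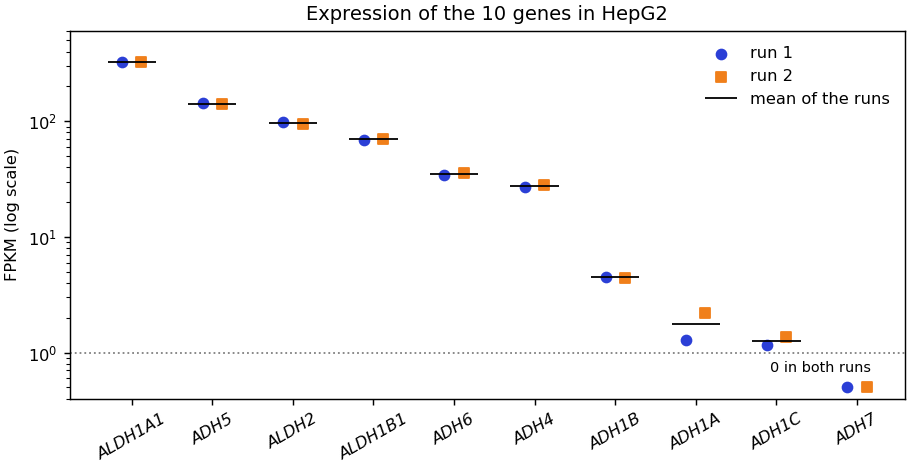
FPKM of each gene on a log scale, in order of falling mean; circles are run 1, squares are run 2, the black bar is the mean and the dotted line is an FPKM of 1. ADH7, at 0 in both runs, is drawn at the lower edge, and ADH1A is the gene whose runs lie farthest apart, at 1.30 and 2.21.

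Among the aldehyde dehydrogenases, ALDH1A1 reached 324 FPKM in run 1 and 327 FPKM in run 2, and ranked 196 among the named loci. ALDH2 had 98.0 and 95.1, although its status in the table is FAIL, a mark that the authors' comparison of the runs could not be computed for it. ALDH1B1 had 69.4 and 70.4. Each gene was thus ordered the same way in both runs. The mean level of ALDH1A1 was 3.37 times that of ALDH2, and ALDH2 was 1.38 times ALDH1B1. Of the summed FPKM of these 3 genes, 66.2% came from ALDH1A1.

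Among the alcohol dehydrogenases, ADH5 was highest, with 142.6 in run 1 and 141.2 in run 2. It made up 67.0% of the summed FPKM of the 7 ADH genes. ADH6 had 34.4 and 35.4. ADH4 had 27.2 and 27.9 as the sum of its 2 rows, of which 1 row, numbered among the loci of the other strand, held 1.55 and 1.76. Each of these genes was above every class I gene in both runs.

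Class I ADH was low beside the other members, except ADH7. Among all named loci these genes were not low, since ADH1B, ADH1A and ADH1C were above 59.95%, 52.1% and 50.1% of them. The FPKM of ADH1B was 4.48 in run 1 and 4.43 in run 2, ADH1A had 1.30 and 2.21, and ADH1C had 1.17 and 1.37. Their sum was 7.48, or 3.53% of the ADH total, and ADH5 was 19.0 times that sum. In the order of all 10 genes, ADH1A and ADH1C were the only neighbours whose run values overlapped, so their order is not resolved. The runs of ADH1A differed by 0.77 on the log2 scale, and 1.14% of the 1581 loci with an FPKM from 1 to under 5 and coordinates of their own differed more. The class I genes are close copies, and whether reads were shared or misassigned among them was not tested, so the split of 7.48 between them is uncertain.

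ADH7 was listed at 0 in both runs. The files give no read counts, so no limit of detection can be put on that value.

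Nucleosome positions were then examined over each locus plus 10 kb on either side. The authors gave each position and each peak by its start and end alone, so the number of reads behind a call is unknown. The windows of the 10 genes held 2278 positions, each counted once, of which 115 carried at least 1 mark, or 5.05% (exact 95% binomial interval 4.19 to 6.03). In the whole genome 1.43% of positions were marked, which includes positions far from any named locus. The share over the windows of all named loci is not given here, so the difference is not read as particular to these genes. The paper reports a larger share of marked nucleosomes in the genome, so a lack of marks here means a lack in the deposited lists. The interval of 4.19 to 6.03 and those that follow cover counting error only, and neighbouring positions are not independent. The shares of single genes ranged from 1.12% for ADH1B to 7.14% for ALDH1B1. The nucleosome map over the class I genes had 4.96 to 5.08 positions per kb, within the 4.72 to 5.46 of the other genes. The genome had 4.72, taken from the first to the last position of each chromosome, gaps included. The coverage of the ChIP-Seq libraries over these genes is not known.

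Of these 115 positions, 45 (39.1%) carried H3K27ac alone, against 19.9% of the marked positions of the genome. The trivalent mark H3K4me3/H3K9ac/H3K27ac ("T") was at 29 (25.2%), against 21.0% in the genome. H3K9me3 alone was at 9 (7.83%), against 16.4%, and H3K27me3 alone at 1 (0.870%), against 12.2%. These shares of the genome also include positions far from any named locus. H3K4me3/H3K9ac was at 9 positions, H3K4me3 alone at 7, H3K9ac/H3K27ac at 6, H3K4me3/H3K27ac at 4, H3K9ac alone at 4 and H3K27me3/H3K9me3 at 1. No position joined an activation mark with H3K27me3 or H3K9me3, and in the genome only 0.401% of marked positions did, so the count of 0 is no result about these genes.

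**Figure D2:**
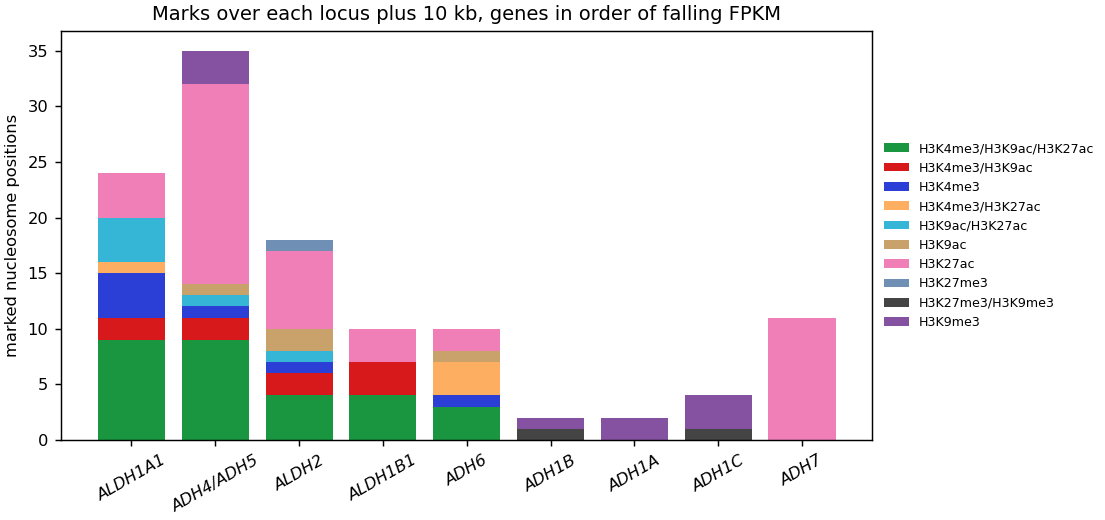
Number of marked nucleosome positions over each locus plus 10 kb, coloured by the exact set of marks, with genes in order of falling FPKM; ADH4 and ADH5 share 1 window and 1 bar. ADH1A, ADH1B and ADH1C hold only H3K9me3 positions, 1 of them with H3K27me3, and ADH7 holds only 11 positions with H3K27ac.

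At least 1 activation-marked position was found over the locus plus 10 kb for 7 of the 10 genes, against 78.4% of named loci, and at least 1 "T" for 6 of the 10, against 63.3%. These counts are near the shares of all loci and are no result about the family as a whole. The genes differed among themselves.

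Near the transcription start site (TSS), only the 8 genes with coordinates of their own can be read, since ADH4 and ADH5 share a locus. Within 2 kb of the TSS, ALDH1A1 had 7 "T", ALDH1B1 and ALDH2 had 4 each, ADH6 had 3, and ADH1A, ADH1B, ADH1C and ADH7 had 0. So 4 of these 8 genes had at least 1 "T", against 42.4% of the 14034 named loci with coordinates of their own and a strand. Among the loci of that kind with an FPKM of at least 1 the share was 84.4%, and 4 of the 7 genes with such an FPKM had a "T", the exceptions being the class I genes.

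**Figure D3:**
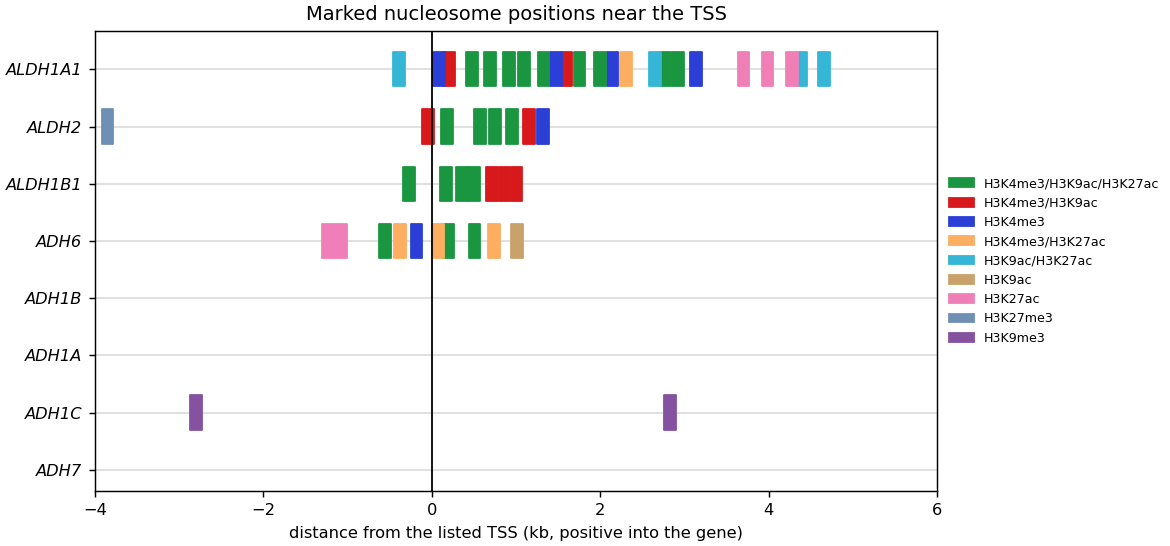
Marked nucleosome positions from 4 kb upstream to 6 kb downstream of the listed TSS of the 8 genes with coordinates of their own, in order of falling FPKM from the top; each block is 1 position of 140 bp coloured by its marks, and positive distances run into the gene. Blocks at ALDH1A1, ALDH2 and ALDH1B1 lie mostly downstream, those at ADH6 lie on both sides, and the rows of ADH1A, ADH1B and ADH7 are empty.

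ALDH1A1 is listed on chromosome 9 (chr9:75515587-75567969, hg19, minus strand). A run of 23 marked positions, counted as 1 run where successive starts lay within 1 kb, went from 75563250 to 75568426, and 26 positions lay in it. All 9 "T" of the locus were downstream of the TSS, at 478 to 2923 bp. Upstream there was 1 marked position within 2 kb, with H3K9ac and H3K27ac, at -387 bp. H3K4me3 was at 16 positions, reaching 3132 bp into the gene. A count of 7 or more "T" near the TSS was found at 3.12% of the loci with coordinates of their own. The neighbours were low, with an FPKM of 0.0138 for TMC1, 64.3 kb from the lower end, and 1.05 for ANXA1, 198.7 kb from the higher end.

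ALDH1B1 is listed on chr9:38392702-38398657 (plus strand). Its 7 positions with H3K4me3 lay from -275 to 1005 bp, all of them also with H3K9ac, and 4 were "T" while the 3 farthest downstream lacked H3K27ac. The widest gap between positions within 1 kb of the TSS was 305 bp, from -205 to 100 bp, so it contained the listed TSS. In no other member with coordinates of its own did the widest gap contain the listed TSS. The share of all named loci with such a gap is not given here, so it is not read as particular to ALDH1B1. A separate group of 3 positions with H3K27ac alone lay at -6930 to -6535 bp. IGFBPL1, 7.87 kb beyond the higher end, had an FPKM of 0.217, so the high level was not shared by the next gene.

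ALDH2 is listed on chr12:112204346-112251890 (plus strand). Its 7 positions with H3K4me3 lay from -49 to 1316 bp, in a run of 1505 bp, and the 4 "T" were at 176 to 956 bp. Inside the gene, 7 positions with H3K27ac alone followed at 7686 to 21971 bp. The 1 position with H3K27me3 near the gene, from 112200427 to 112200566, lay upstream, and no H3K9me3 was found. ACAD10, 9.26 kb below, had an FPKM of 4.04 and 3 "T" near its own TSS.

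The listed ALDH2 locus is 47545 bp long, against 50600 bp in RefSeq, and that of ADH1B is 15046 bp, against 16431 bp. For ALDH1A1 both are 52383 bp. The annotation behind the table may therefore start or end elsewhere than RefSeq for ALDH2 and ADH1B, and their TSS are less certain.

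The 7 ADH genes lie close together on chromosome 4, over 366 kb, all on the minus strand, so that each TSS is at the higher coordinate. The interval between METAP1 (FPKM 30.9) and RG9MTD2, which also holds C4orf17 and PCNAP1, both listed at 0, spans 484 kb and 2431 nucleosome positions, of which 70 were marked. Activation marks were at 56 of these, and 32 carried H3K27ac alone. The marks were not spread evenly: the part with ADH5, ADH4 and ADH6 carried all 12 "T", and the class I genes carried none.

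**Figure D4:**
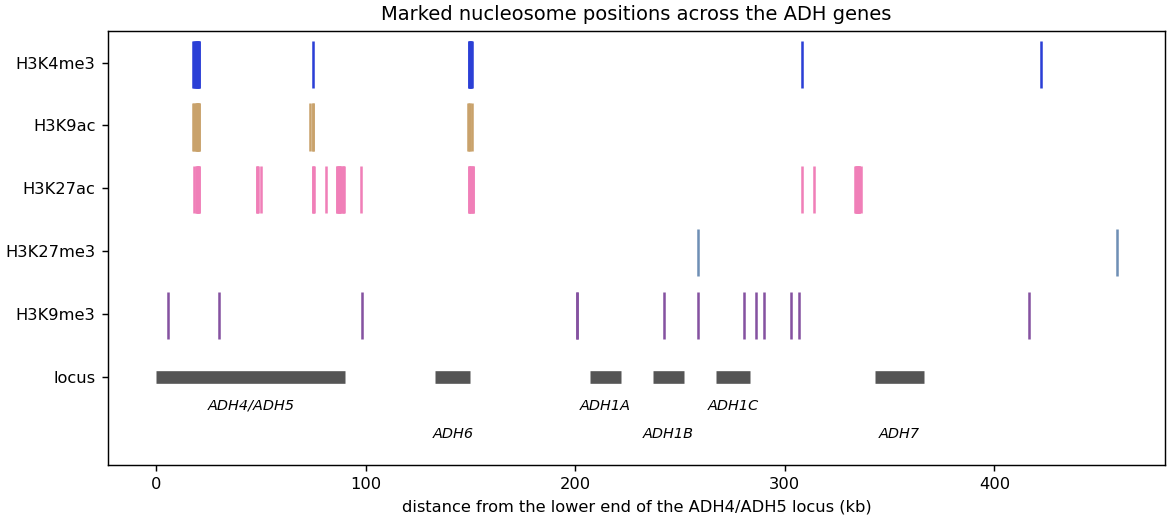
Positions of the 5 marks across the ADH genes, in kb from the lower end of the shared ADH4/ADH5 locus; each line is 1 nucleosome position, and grey bars are the listed loci. Activation marks stand at the ADH4/ADH5 locus and at ADH6, and the next large group, of 11 positions with H3K27ac, lies between ADH1C and ADH7. The lines in and around ADH1A, ADH1B and ADH1C are of H3K9me3, and none lies on the bar of ADH1A. The 1 line that also has H3K27me3 lies between the bars of ADH1B and ADH1C.

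ADH5 and ADH4 share 1 locus in the table (chr4:99990498-100080742), so the start of each gene cannot be read from it, and the listed TSS is the higher end of the shared locus. Near that end there were 0 "T" and 3 positions with H3K27ac within 2 kb. The largest run with H3K4me3 in the locus lay from 100007944 to 100010946, 69.8 kb below the shared end. It held 11 marked positions out of 12, all with H3K4me3, and 8 of them were "T". A smaller run lay 54.2 kb higher, from 100065152 to 100065951, with 3 marked positions, 1 of them "T". ADH5 lies below ADH4 in the RefSeq order, but the table does not say which run belongs to which gene.

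The same locus held 18 positions with H3K27ac alone in its window. Of these, 11 formed a run of 3410 bp from 100076667 to 100080076, which had no H3K4me3 and no H3K9ac and ended 0.666 kb below the shared end. There were 3 positions with H3K9me3 in the window, and 1 of them lay next to a position with H3K27ac, from 100088322 to 100088606, above the shared end.

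ADH6 (chr4:100123714-100140403) had 10 marked positions, all within 2 kb of its TSS. H3K4me3 was at 7, H3K27ac at 8 and H3K9ac at 4, so H3K9ac was the rarest of the activation marks here. The 3 "T" were at -560 to 507 bp, and 3 more positions carried H3K4me3/H3K27ac without H3K9ac. There were 5 marked positions on each side of the TSS, unlike ALDH1A1, with 1 upstream and 11 downstream, and ALDH1B1 and ALDH2, with 1 upstream and 6 downstream each. No position within 10 kb of ADH6 carried H3K27me3 or H3K9me3.

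ADH1A (chr4:100197523-100212185), ADH1B (chr4:100227527-100242572) and ADH1C (chr4:100257649-100273917) had 0 activation-marked positions among 172, 178 and 181 positions over the locus plus 10 kb. A count of 0 allows a share of up to 1.74%, 1.69% and 1.66% of these positions. Their windows held 2, 2 and 4 marked positions, all with H3K9me3, and 1 of these, from 100248767 to 100248906, also carried H3K27me3 and was in the windows of both ADH1B and ADH1C. The marked shares, 1.16% (0.141 to 4.14), 1.12% (0.136 to 3.9997) and 2.21% (0.605 to 5.56), all have intervals that include the 1.43% of the genome. Within 2 kb of the TSS of these 3 genes no position carried any mark.

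Expressed genes without an activation mark were few. Among the 6629 loci with coordinates of their own and an FPKM of at least 1, 1.30% had no activation-marked position over the locus plus 10 kb, and among the 1581 of these with an FPKM under 5 the share was 4.30%. Among loci with an FPKM under 0.1 it was 63.3%. The class I genes thus shared the lack of activation marks with most loci under 0.1 while having an FPKM above 1. How many of their reads come from other ADH genes was not tested.

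The stretch without any activation mark around the class I genes went from 100141702, next to the upstream marks of ADH6, to 100298784. It was 157 kb long and held 790 positions, 9 of them with H3K9me3. In the whole genome, 3772 intervals between neighbouring activation-marked positions were at least as long. Of these, 1416 held a named locus with coordinates of its own, 56 held such a locus with an FPKM of at least 1, and 2 held at least 3 of them, including this one. This count was chosen after the marks had been seen and is given as a description.

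ADH7 (chr4:100333418-100356667) had no marked position within 2 kb of its TSS or inside the gene. Its window held 11 positions with H3K27ac alone, in a run of 2800 bp from 100323957 to 100326756. This run ended 6.66 kb below the lower end of ADH7, which is its 3' end, and began 50.04 kb above the TSS of ADH1C. It carried no H3K4me3 or H3K9ac, like the run at the higher end of the ADH4/ADH5 locus. The FPKM of the next named gene above ADH7, C4orf17, was 0.

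H3K27me3 or H3K9me3 was present over the locus plus 10 kb for 6 of the 10 genes, against 46.9% of named loci. H3K9me3 was present for 5, all of them ADH genes and 2 of them sharing a window, against 31.9%, and H3K27me3 for 3, against 31.2%. No gene had more than 4 positions with H3K9me3, and no run of this mark was longer than 2 positions in the cluster.

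The level of each gene was set beside that of loci with a like number of "T". For loci with 0 "T" the median FPKM was 0.0130 and the 90th percentile 1.98, so ADH1B was above that percentile and ADH1C below it in both runs. ADH1A was below it in run 1 and in the mean and above it in run 2. For loci with 1 to 3 "T" these were 9.92 and 52.1, and ADH6 was between these. ALDH2 was above and ALDH1B1 below the 90th percentile of 85.6 for loci with 4 to 6 "T". ALDH1A1 was above the 114.6 of loci with 7 or more.

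**Figure D5:**
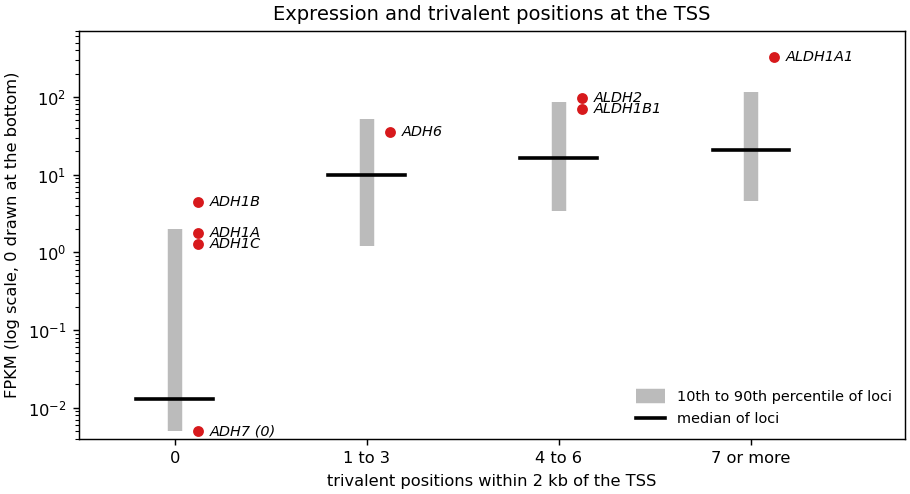
FPKM on a log scale against the count of "T" less than 2 kb from the listed TSS; grey bars run from the 10th to the 90th percentile of the named loci with coordinates of their own, black lines are medians, red points are the 8 genes, and values of 0 are drawn at the bottom. ALDH1A1, ALDH2 and ADH1B lie above the grey bar of their class.

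The other aldehyde dehydrogenases, a list of 16 genes, had 12 with an FPKM of at least 1, against 51.4% of named loci, and a median of 14.1, between 0.00807 for ALDH3B2 and 74.0 for ALDH3B1. No gene of this list reached ALDH2 or ALDH1A1. ALDH3B1 and ALDH3A2, the fatty aldehyde dehydrogenase, at 72.0, were listed above ALDH1B1. ALDH3B1 is listed together with NDUFS8, so its own level and rank are uncertain. ALDH1A2 and ALDH1A3, the other retinaldehyde dehydrogenases, had 0.00809 and 0.0856, and with ALDH3A1 at 0.139 and ALDH3B2 they were the 4 genes below 1. Thus, of the ALDH1A genes, ALDH1A1 was at a high level and the others near 0. An activation mark over the locus plus 10 kb was found for 15 of the 16, against 78.4% of named loci. Of the 11 with coordinates of their own, 4 had a "T" near the TSS, against 42.4%, so the last count is near its share.

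In the list of other ethanol and acetate genes, all 6 had a mean FPKM of at least 1, against 51.4% of named loci. CYP2E1, the ethanol-oxidising cytochrome P450 of the liver, was low, with 6.03 in run 1 and 5.19 in run 2. It had 0 "T" and 3 marked positions within 2 kb of its TSS. Over the locus plus 10 kb it had 4 marked positions, 1 "T" and 3 with H3K27me3 or H3K9me3. The 3 near the TSS were therefore those with H3K27me3 or H3K9me3. CAT, the catalase gene, had 48.1, ACSS2 and ACSS1, which activate acetate, had 38.7 and 35.6, and AKR1A1, an aldehyde reductase, had 60.7. ADHFE1, an iron-type alcohol dehydrogenase with another substrate, had a mean of 1.02, with 0.932 in run 1 and 1.11 in run 2.

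In the list of retinol genes, 5 of 8 had an FPKM of at least 1, which is near the 51.4% of named loci. RBP4, the retinol carrier of plasma, had 536 and RDH11, a retinal reductase, had 89.3 in a row it shares with VTI1B, so its own level is uncertain. LRAT, CYP26A1 and CRABP2, which esterify retinol, degrade retinoic acid and bind it, had 0.0646, 0.192 and 0.333. CYP26A1 had 6 marked positions within 2 kb of its TSS and none was "T". Of these, 5 carried an activation mark and 2 carried H3K27me3 or H3K9me3, so both kinds met at the same position.

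The label of a liver cell line was checked against marker genes. All 10 hepatocyte markers had an FPKM of at least 12.5, with ALB at 10011 and AFP, the fetal counterpart of albumin, at 3798. Of the 6 markers of other cell types, 5 were under 0.2, and KRT19, a bile duct keratin, was at 109.5.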

How the data were processed

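HepG2 was measured by native MNase-Seq, ChIP-Seq of 5 histone marks and RNA-Seq, with 1 sample per assay. Per the submitters' processing notes, reads were aligned to hg19 with BWA, and the RNA-Seq notes name TopHat2 2.1.0, Bowtie and HOMER 4.7 among the tools. The authors called nucleosome positions with DANPOS and peaks at those positions with NUCLIZE, under their own limits on fold and false discovery rate, and deposited coordinates without read counts. The authors deposited RNA-Seq as FPKM in 2 columns, in a layout like that of Cuffdiff, and the annotation is not given in the sources used here. Columns with the authors' own comparison of the runs (fold change, test statistic, p-value and q-value) were not used. The deposited lists and FPKM give no reads per position or gene, so the precision that depth allows could not be computed for a single call.

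The mean of the FPKM columns was used, and rows with the same symbol were summed. A peak was given to the position whose identifier it carries, which matched all peaks (0 unmatched). A position was in a window if its midpoint was. Strand was inferred from the order in which loci are numbered, and it was the RefSeq strand for 99.4% of 8596 loci and for the 9 of the 10 genes that have a RefSeq entry in the promoter table. Shares have exact Clopper-Pearson 95% intervals, and the limit for a count of 0 is 3 counts. The members and lists were chosen with earlier results of these data known. The genes named are the members, the nearest named loci, and list genes at or beyond the highest or lowest member or otherwise picked after their values were seen. The counting step was run on simulated data, where the planted counts were recovered for 400 of 400 genes. The marks were planted with the same window rule that counts them. This run therefore checks the code only, and not the inferred strand, the choice of TSS or positions with mixed marks. Alternatives were other limits for expression, single runs, flanks of 0, 5 and 20 kb, and TSS windows of 1 and 5 kb. Further ones were other rules of overlap and taking either end of the locus. Added after the data were seen were leaving out ADH4 and ADH5 and each repressive mark alone. Motif positions count back from the base before the start. Promoters were aligned with Biopython 1.88, intervals came from scipy 1.17.1 and tables from pandas 2.3.3 with numpy 2.4.6, under Python 3.11.15, and plots from matplotlib 3.10.9.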

Additional observations from a re-analysis of the deposited data

How the results depend on the processing

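The number of genes with an FPKM of at least 1 was 9, and it was 6 with a limit of 5, which left out the class I genes. The marked share of all windows together, 5.05%, was 5.93% without flanks, 4.98% with 5 kb, 4.196% with 20 kb and 5.58% when any overlap of a peak with a position counted. The number of genes with a "T" near the TSS was 4 under the 4 alternatives run, 1 of them added after the data had been seen. At ALDH1A1 the 7 "T" within 2 kb became 3 within 1 kb. The genes with H3K27me3 or H3K9me3 were 4 without flanks and 7 with 20 kb, and with H3K27me3 alone, an alternative added later, there were 3. In ADH1A and ADH7 the marked share was 0 without flanks and with 5 kb, since their marked positions lie outside the listed genes. Without flanks the share of ALDH1B1 was 18.2%. With its higher row alone, ADH4 had an FPKM of 25.9. No paired analysis was possible because there is 1 sample per assay, and for the same reason no replicate could be left out. The lists hold no score or read count per peak, so a stricter peak threshold could not be run.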
